A study of Mus musculus with 8 samples.

Results

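SMAD4 binding near 6 endothelial tip cell genes was described in MS1 cells, an established mouse endothelial line from pancreatic islets that was immortalised with a viral oncogene. The genes are Apln, Aplnr, Esm1, Igfbp3, Plaur and Cxcr4. A peak was counted when its summit lay inside or within 100 kb of the gene body of one of them, which gave 11 of the 4333 peaks of the BMP9/10-stimulated list and 2 of the 1133 peaks of the unstimulated list. The genes were listed by name and no peak value enters the rule, but the list was drawn up with earlier results of the same data known.

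The study held 8 samples in 4 groups of 2. They were SMAD4 immunoprecipitates (IP) and input DNA from cells given 1 ng/mL recombinant BMP9/10, and SMAD4 IP and input DNA from cells given fresh medium only, all after 24 h without serum. An unexplained KD stands in both titles of the stimulated IP libraries, whose other labels describe SMAD4-bound DNA of stimulated cells, and stimulated values below mean values of the libraries so labelled. Each list came from 2 IP libraries merged against 2 merged inputs (41044888 IP tags stimulated, 52971023 unstimulated), so each peak has 1 value, with no replicate error, and no difference between the conditions was tested across replicates. Nothing in the labels says whether the libraries of a group came from separate cultures.

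Tip cells lead a growing vessel sprout and extend filopodia towards a source of VEGF, while the stalk cells behind them form the tube. BMP9 and BMP10 signal in endothelium through the receptor ALK1 and its co-receptor endoglin to receptor-activated SMADs, which enter the nucleus with SMAD4, and this pathway is known to restrain sprouting. Of the 6 genes, Apln encodes the peptide ligand apelin and Aplnr its G protein-coupled receptor. Esm1 encodes endocan, a secreted proteoglycan, and Igfbp3 a secreted binding protein of insulin-like growth factors. Plaur encodes the receptor of the protease urokinase, and Cxcr4 the receptor of the chemokine CXCL12.

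In the stimulated list, 4 of the 6 genes (Apln, Esm1, Igfbp3 and Plaur) had a peak within 100 kb, and each of these 4 was the nearest protein-coding gene to at least 1 peak. In the unstimulated list, 2 genes (Apln and Plaur) had a peak within 100 kb, and Apln was nearest to its peak. Over all 21887 protein-coding genes, 36.5% had a stimulated and 13.1% an unstimulated peak within 100 kb, and 12.2% and 3.79% were nearest to one. The tip cell genes are short, from 3.56 kb (Aplnr) to 15.0 kb (Plaur). Among protein-coding genes no longer than Plaur, 32.3% had a stimulated and 11.7% an unstimulated peak within 100 kb. With 6 genes and pooled libraries these shares are descriptions and were not tested.

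**Figure D1:**
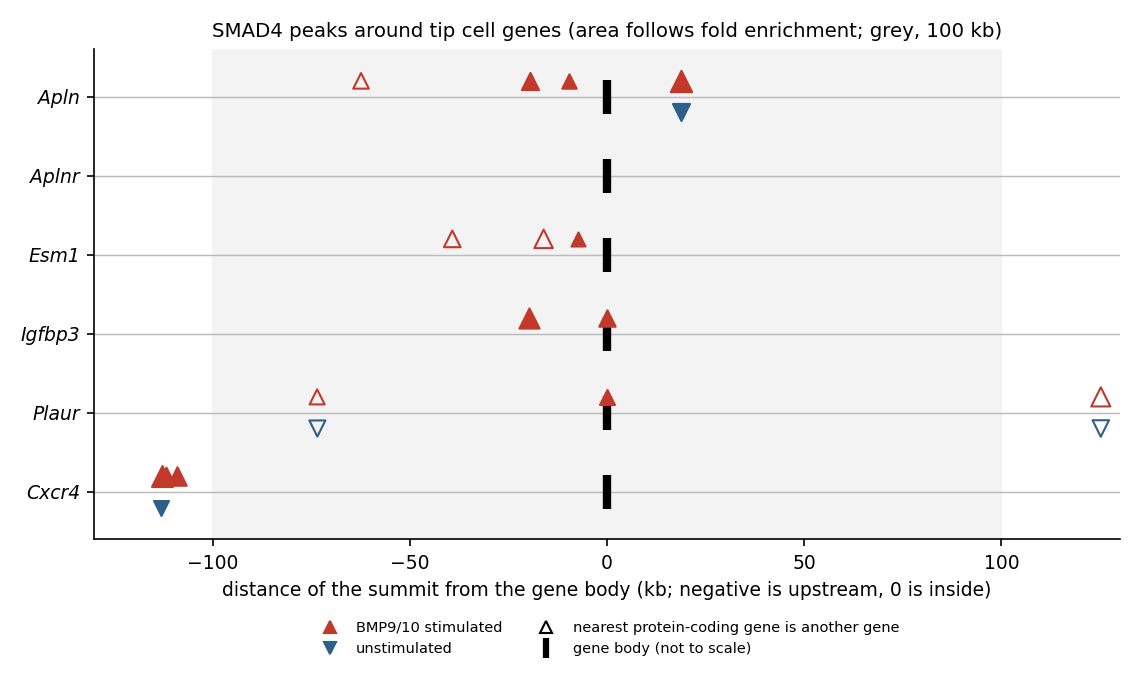
Positions of SMAD4 peak summits around the 6 tip cell genes, as distance from the gene body in kb along the direction of transcription (0 is inside, negative is upstream). Upward triangles are stimulated peaks and downward triangles unstimulated ones, filled where the gene is the nearest protein-coding gene; Apln, Esm1, Igfbp3 and Plaur have stimulated peaks inside the grey 100 kb zone, Aplnr has none, and the Cxcr4 peaks stand just past its edge.

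Promoter sequences were available for 5 of the 6 genes, all but Aplnr, from RefSeq (GRCm38.p6, the assembly behind mm10). The 250 bases before the transcription start are shown for Apln, whose promoter held the only motif match, and for Plaur and Igfbp3, whose starts had the closest stimulated peaks. Capitals mark a match to a searched motif. The regions are chrX:48034854-48035103 (minus strand) for Apln, chr7:24462233-24462482 (plus strand) for Plaur and chr11:7213924-7214173 (minus strand) for Igfbp3, each written 5′ to 3′ along the gene's strand.
Apln: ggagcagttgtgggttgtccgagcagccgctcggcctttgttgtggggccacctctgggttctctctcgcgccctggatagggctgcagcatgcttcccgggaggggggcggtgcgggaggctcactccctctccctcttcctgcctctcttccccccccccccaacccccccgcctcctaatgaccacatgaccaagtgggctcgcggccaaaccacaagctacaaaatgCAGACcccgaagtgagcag
Plaur: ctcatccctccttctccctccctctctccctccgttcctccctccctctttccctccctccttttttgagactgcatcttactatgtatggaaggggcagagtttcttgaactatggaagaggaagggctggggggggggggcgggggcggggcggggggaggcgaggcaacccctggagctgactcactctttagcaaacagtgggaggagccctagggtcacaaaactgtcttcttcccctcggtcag
Igfbp3: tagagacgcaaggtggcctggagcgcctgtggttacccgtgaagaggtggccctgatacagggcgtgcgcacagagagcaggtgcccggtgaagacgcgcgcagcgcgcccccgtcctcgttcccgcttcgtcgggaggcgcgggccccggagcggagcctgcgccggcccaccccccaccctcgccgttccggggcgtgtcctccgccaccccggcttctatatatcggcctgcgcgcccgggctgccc

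Of the 4 motifs searched on both strands, the SMAD box CAGAC was found in 1 of the 5 promoters, that of Apln, where it begins 19 bases before the start. It occurs in 40.9% of 21263 promoter windows of protein-coding genes, so this is no more than promoters in general hold. The palindromic SMAD site GTCTAGAC (0.183% of windows), the GC-rich SMAD site GGCGCC (12.3%) and the hypoxia response core ACGTG (17.8%) were found in none of the 5. The palindromic sequence GTCTAGAC does not contain the searched string CAGAC on either strand, so no match was counted under both. Guanine and cytosine made up 73.2% of the Igfbp3, 65.2% of the Apln, 61.2% of the Cxcr4, 59.6% of the Plaur and 44% of the Esm1 window, against a median of 55.6% over all windows. No peak summit of either list lay inside these windows, and no sequence under the peaks was analysed here.

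Apln, the ligand gene, carried the most peaks within 100 kb and, within that distance, the only site called in both lists that was nearest to a tip cell gene. The stimulated peak at chromosome X, 48006090 to 48006535, lay 18.7 kb beyond the end of the gene, 28.4 kb downstream of the start. There the IP pileup, the number of IP tags over the summit when each is taken as a 100 bp fragment, was 45 in the stimulated list. It was 37 in the unstimulated list (48006165 to 48006542). The authors' fold enrichment over input was 7.54 stimulated and 4.81 unstimulated, and −log10 q was 22.3 and 10.8. The summits were 97 bp apart and the peaks overlapped over 371 bp. By −log10 q this site ranked 322 of 4333 stimulated peaks and 326 of 1133 unstimulated ones. The pseudogene Gm7743, 3.49 kb from the stimulated summit, was closer to it than Apln, the nearest protein-coding gene.

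Upstream of Apln, the stimulated list held peaks that the unstimulated list did not. They lay 9.57 kb (48044383 to 48044560, fold enrichment 3.43, pileup 23) and 19.5 kb (48054122 to 48054393, fold enrichment 4.86, pileup 16) before the start. Both were in the weaker part of the list, at ranks 3670 and 3153. A further stimulated peak 62.4 kb upstream (48097223 to 48097345, fold enrichment 4.0) was nearest to Xpnpep2, an aminopeptidase gene, at 9.66 kb. The 4 stimulated peaks within 100 kb of Apln compare with 3.99% of protein-coding genes that had 4 or more.

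Aplnr, the apelin receptor gene on chromosome 2 (85136360 to 85139923), had 0 peaks within 100 kb in either list. The closest stimulated summit was 219 kb away and was nearest to Slc43a3, a solute carrier gene. The closest unstimulated summit was 1421 kb away. Ligand and receptor thus differed in called sites, but a site too weak to be called has no value in these lists. Over all protein-coding genes, 36.5% had a stimulated and 13.1% an unstimulated peak within 100 kb, so most genes had none.

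Esm1, which is widely used as a tip cell marker, had 3 stimulated and 0 unstimulated peaks within 100 kb, all 3 upstream of the gene on chromosome 13. The closest (113202263 to 113202380) lay 7.33 kb before the start, was 118 bp wide and had a pileup of 28 and a fold enrichment of 3.22, the lowest of the 11 stimulated peaks. The strongest (113193474 to 113193706) lay 16.1 kb before the start with a pileup of 30 and a fold enrichment of 5.64, at rank 1263. It was 12.6 kb from Gzmk, which encodes a granzyme protease of cytotoxic lymphocytes, and was therefore not counted as nearest to Esm1. The peak 39.3 kb upstream (113170320 to 113170449, fold enrichment 4.57) lay 1.23 kb from Gzmk. The 2 peaks closest to Esm1 also fell inside the lncRNA gene Gm41069. The closest unstimulated summit to Esm1 was 456 kb away, and 7.98% of protein-coding genes had 3 or more stimulated peaks within 100 kb.

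Igfbp3 had 2 stimulated peaks on chromosome 11, was the nearest protein-coding gene to both, and had 0 unstimulated peaks within 1 Mb, since the closest unstimulated summit was 1229 kb away. The stronger stimulated peak (7235247 to 7235490) lay 21.5 kb upstream of the start and 19.9 kb from the gene body, inside the lncRNA gene Gm36565. It had a pileup of 39, a fold enrichment of 6.67 and a −log10 q of 17.3, which put it at rank 598. Of the 9 stimulated peaks within 100 kb of these genes without an unstimulated counterpart, it had the highest fold enrichment. The other (7211256 to 7211399) lay inside the gene, 2.59 kb downstream of the start, with a pileup of 15, a fold enrichment of 4.44 and a −log10 q of 4.03, at rank 3607.

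Plaur had 2 stimulated peaks and 1 unstimulated peak within 100 kb on chromosome 7. The stimulated peak at 24461756 to 24461867 had its summit 0.698 kb upstream of the start whose promoter is shown above, and inside the gene body, because the RefSeq gene body begins further upstream than that start. It was 112 bp wide, with a pileup of 23, a fold enrichment of 3.69 and a −log10 q of 4.55, at rank 3377, and no unstimulated peak overlapped it. Of the 5 genes with a promoter sequence available here, Plaur alone had a stimulated summit within 1 kb of the start. The share was 4.37% over the 17492 protein-coding genes with such a sequence. The other Plaur peak was shared and lay 73.5 kb away in both lists (24387352 to 24387590 stimulated, 24387301 to 24387532 unstimulated). Its nearest gene was Kcnn4, a calcium-activated potassium channel gene, at 2.19 kb from the stimulated summit.

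Cxcr4, on chromosome 1 (128588199 to 128592299), had 0 peaks within 100 kb in either list, but a cluster of peaks stood just past that distance, and Cxcr4 was the nearest protein-coding gene to them. The stimulated peaks lay 109 kb (128701377 to 128701532), 112 kb (128704002 to 128704285) and 113 kb (128705023 to 128705503) upstream, with fold enrichments of 5.63, 5.13 and 7.26. The last of these ranked 101 of 4333 by −log10 q (32.2), above every peak within 100 kb of the 6 genes. It overlapped the only unstimulated peak there (128705079 to 128705387, fold enrichment 3.67, −log10 q 8.49). These peaks were looked at after the count within 100 kb was seen and are not part of that count. On the inner side of the 100 kb limit, the farthest counted peaks were the shared Kcnn4 site in the Plaur window at 73.5 kb and the Xpnpep2 site in the Apln window at 62.4 kb.

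**Figure D2:**
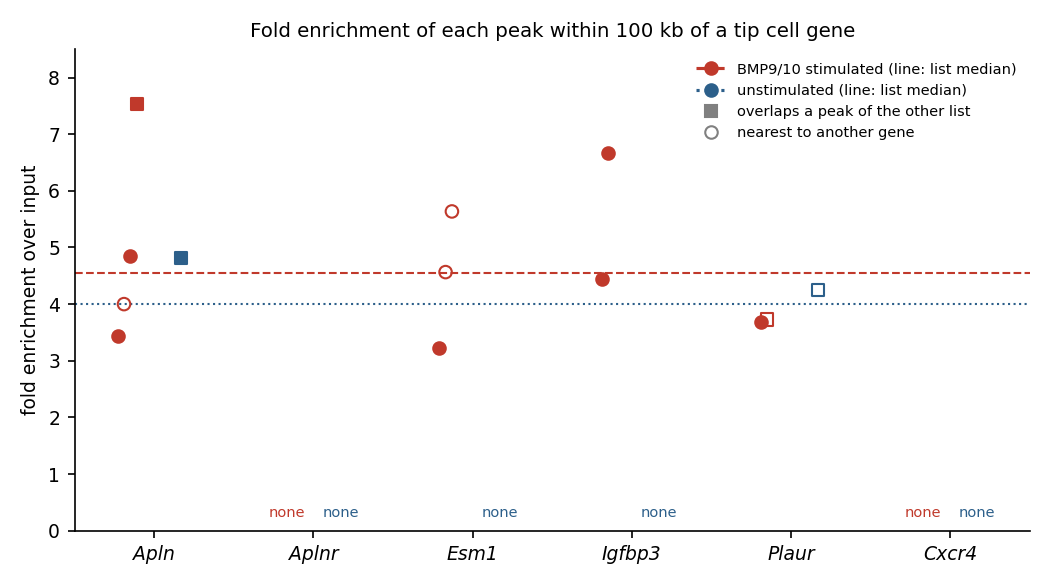
Fold enrichment over input, as called by the authors, of each peak within 100 kb of a tip cell gene, with stimulated peaks on the left and unstimulated peaks on the right of each gene. Squares overlap a peak of the other list, open symbols are nearest to another gene, and lines are the medians of the whole lists (4.56 stimulated, 4.0 unstimulated); the highest values are those of Apln (7.54) and Igfbp3 (6.67) in the stimulated list.

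The peaks around the tip cell genes had fold enrichments close to the median of their list. The 11 stimulated peaks had fold enrichments from 3.22 to 7.54 with a median of 4.44, against a median of 4.56 (interquartile range 3.70 to 5.63) over all 4333. Their median width was 178 bp, against 207 bp over the list. Peaks under 150 bp wide made up 5 of the 11, against 26.4% of the list. The 2 unstimulated peaks had fold enrichments of 4.81 and 4.25, against a median of 4.0 over all 1133. Inside a gene body of the 6 genes lay 2 stimulated peaks, at Igfbp3 and Plaur, and 0 unstimulated ones. Of the 9 stimulated peaks outside the gene bodies, 8 were upstream of the gene and 1, at Apln, was downstream. The 8 include the 4 peaks that were nearest to another gene. The same split over all genes was not computed, so no preference for upstream sites can be read from it.

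Sharing between the lists was also close to that of the list as a whole. Of the 11 stimulated peaks, 2 overlapped an unstimulated peak (18.2%), against 24.9% of all stimulated peaks. Both of the 2 unstimulated peaks overlapped a stimulated one, as did 95.9% of the unstimulated list. The 9 stimulated peaks without a counterpart belonged to all 4 genes that had peaks, with a median fold enrichment of 4.44, against 4.29 over the 3252 such peaks of the list. Their pileups ran from 15 to 39 tags and their −log10 p from 7.61 to 22.1. Between them and the closest unstimulated summit lay 38.1 kb to 1233 kb. The lists give no value where no peak was called, so the IP level at these 9 positions in unstimulated cells was not analysed here.

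At the 2 shared sites the pileup was divided by the IP tags of each list to allow for depth. The site downstream of Apln had 1.10 tags per 1000000 IP tags stimulated, against 0.698 unstimulated, a ratio of 1.57 with a 95% counting interval of 0.993 to 2.49. The site near Kcnn4 in the Plaur window had 0.975 stimulated, against 0.623 unstimulated, a ratio of 1.56 (0.962 to 2.56). Both intervals reach below 1, so at this depth neither difference is larger than its counting error, and the intervals cover counting error only. Over all 1078 shared pairs outside mitochondrial DNA the median ratio was 1.47 (interquartile range 1.29 to 1.68), and 36.6% had an interval above 1, so both sites were near the middle of the shared pairs. The shared Cxcr4 peak 113 kb upstream, outside the 100 kb count and looked at afterwards, had 1.66 stimulated, against 0.812 unstimulated. The ratio was 2.04 (1.37 to 3.06), and 97.0% of pairs had a lower ratio. Its interval includes the median of 1.47 over all shared pairs. By fold enrichment the ratio at this Cxcr4 site was 1.98, and 84.3% of pairs had a lower one.

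Fold enrichment did not move with pileup at both sites. At the Apln site the fold enrichments (7.54 stimulated, 4.81 unstimulated) gave a ratio of 1.57, with a local background of 0.124 tags per 1000000 stimulated and 0.130 unstimulated. At the Kcnn4 site the fold enrichment was lower in the stimulated list (3.73) than in the unstimulated one (4.25), a ratio of 0.877. The local background there was 0.244 stimulated, against 0.132 unstimulated. A fold enrichment ratio below 1 was found at 17.3% of all shared pairs.

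**Figure D3:**
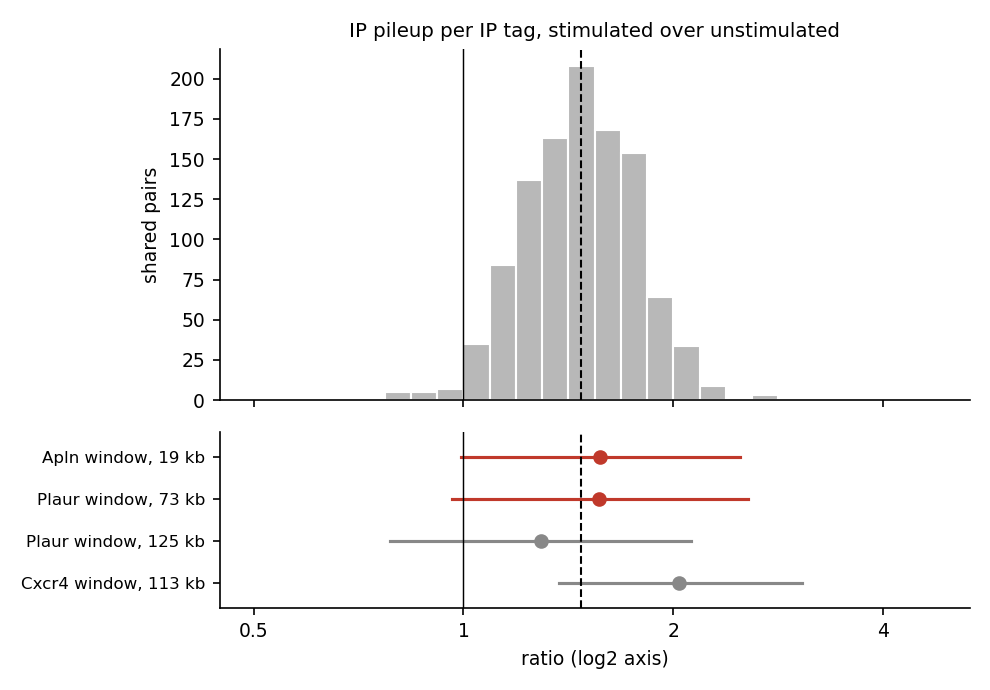
Ratio of IP pileup per IP tag, stimulated over unstimulated, on a log2 axis. The upper panel counts the 1078 shared pairs, with their median of 1.47 dashed. The lower panel gives shared sites with 95% counting intervals. Red is within 100 kb of Apln or Plaur (1.57 and 1.56), and grey is beyond it. In grey, the Cxcr4 site (2.04) has an interval above 1 that includes the median of the pairs.

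Other genes known for tip cells also had SMAD4 peaks. Of 22 such genes, 16 were nearest to a stimulated peak within 100 kb, against 12.2% of all protein-coding genes, and 8 to an unstimulated one, against 3.79%. These shares over all genes were not matched for gene length, and any summit inside a gene counts for that gene. The highest stimulated fold enrichments were at peaks nearest to the basement membrane collagen genes Col4a1 (7.91) and Col4a2 (6.42) and the VEGF receptor gene Kdr (7.50). Next to these stood the growth factor gene Pdgfb (7.34), the laminin gene Lama4 (7.21) and the VEGF and semaphorin co-receptor gene Nrp1 (5.71). The Kdr and Pdgfb peaks lay 10.0 kb and 1.20 kb from the gene body, and the others inside the gene. Col4a1, Kdr, Pdgfb and Lama4 were also nearest to an unstimulated peak (highest fold enrichments 4.84, 4.38, 6.90 and 3.33), while Col4a2 and Nrp1 were not. For Kdr and Pdgfb the stimulated and unstimulated values belong to different sites. Their highest unstimulated peaks lay inside Kdr and 25.8 kb from Pdgfb. Mcam, Nid2, Ramp3, Lamb1, Rgcc and Vegfc were nearest to no peak of either list within 100 kb.

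Partners of the tip cell genes' products were counted in the same way. Of 12 ligand, receptor and partner genes, 3 were nearest to a stimulated and 1 to an unstimulated peak, against 12.2% and 3.79% of all protein-coding genes, which with so few genes reads as no result about the list. The stimulated peaks were nearest to Igf2r (8.25), which binds insulin-like growth factor 2, Igf1r (4.63) and Plau (3.55), which encodes urokinase. They lay 22.0 kb from Igf2r, inside Igf1r and 6.79 kb from Plau. Igf2r was nearest to 1 peak in each list (unstimulated fold enrichment 3.28). Cxcl12 and Ackr3, a ligand and a further receptor beside Cxcr4, and Apela, the other ligand of Aplnr, were nearest to none.

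Stalk cell and Notch response genes had 7 of 10 nearest to a stimulated and 4 nearest to an unstimulated peak. For these and the marker lists below, the shares over all protein-coding genes were 12.2% stimulated and 3.79% unstimulated. Highest were the Notch target genes Hes1 (10.5) and Nrarp (6.74), the VEGF decoy receptor gene Flt1 (6.57) and the Notch ligand gene Jag1 (5.51). Notch4 (5.25) and Notch1 (4.59) followed. These stimulated peaks lay 56.2 kb from Hes1, 35.2 kb from Nrarp and 25.6 kb from Flt1. Those of Notch4 and Jag1 lay 2.62 kb and 0.874 kb away, and that of Notch1 inside the gene. Peaks were therefore not confined to tip cell genes, and the difference between the tip and stalk shares was not tested. Endothelial marker genes were nearest to a stimulated peak in 10 of 10 and to an unstimulated one in 6 of 10. Highest in the stimulated list were Vwf (9.70), Egfl7 (8.88), Sox17 (7.78), Tal1 (7.20), Sox18 (7.11) and Emcn (6.77). Their peaks lay inside Vwf, 2.47 kb from Egfl7, 74.3 kb from Sox17, 3.70 kb from Tal1, 3.97 kb from Sox18 and 18.4 kb from Emcn. Mural cell markers had 1 of 10 in each list (Kcnj8, 6.23 stimulated and 2.41 unstimulated). Leukocyte markers had 2 of 10 in the stimulated list (Ptprc, 9.33, and Spi1, 3.13) and 1 of 10 in the unstimulated list (Ptprc, 4.20). With so few genes, the mural and leukocyte counts read as no result about those lists. The highest stimulated peaks of Kcnj8 and Ptprc lay 16.2 kb and 23.5 kb from the gene, and that of Spi1 inside it. Counted whether nearest or not, a stimulated peak lay within 100 kb of 10 endothelial, 5 mural and 3 leukocyte markers. The share over all protein-coding genes was 36.5%. An unstimulated peak lay within 100 kb of 7, 2 and 3 of them, against 13.1% of all protein-coding genes. Expression was not measured here, and whether active genes collect more peaks was not tested.

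**Figure D4:**
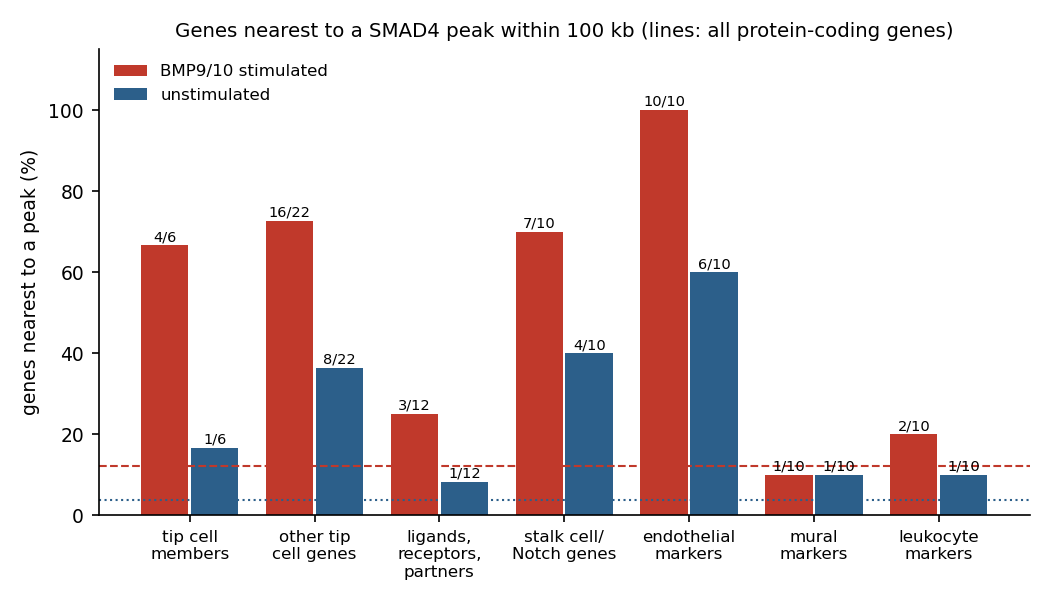
Share of genes (%) that were the nearest protein-coding gene to a SMAD4 peak within 100 kb, with the number of genes above each bar; stimulated bars stand left of unstimulated bars, and lines mark all protein-coding genes (12.2% stimulated, 3.79% unstimulated). Tip cell, stalk cell and endothelial marker genes stand above the lines in both lists, as do the partner genes and leukocyte markers; of the mural markers (1 of 10 in each list) only the unstimulated bar does.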

How the data were processed

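SMAD4 ChIP-seq of MS1 cells was analysed from 2 deposited peak lists. Per the file headers, the authors called narrow peaks with MACS2 2.1.0.20140616 on 2 merged IP against 2 merged input libraries. At most 1 tag per position was kept, and the q cutoff was 0.01. The fragment length was 100 bp in both lists, shorter than the tag sizes of 140 bp (stimulated) and 146 bp (unstimulated). Alternative fragment lengths in the headers were 187 bp stimulated and 171 bp unstimulated. The band width was 200 bp stimulated and 300 bp unstimulated. Build mm10 and the tools MACS2 and HOMER come from the submitters' processing notes. An aligner was not given in the sources used here. The authors' pileup, a coverage signal, was deposited unscaled and was divided by each list's IP tags. Deposited −log10 p and −log10 q values and the fold enrichment (a ratio to local background, with 1 added to both) are the authors' and describe peaks only. Deposited positions and widths are in bp, 1-based.

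Gene bodies and promoters came from RefSeq tables of GRCm38.p6. Distances ran from summit to gene body, ties kept, and overlaps needed 1 bp. Each shared peak was paired once, closest summits first. Counting intervals are exact binomial on the 2 pileups (scipy 1.17.1), at 95%. All members were named, and of each other list up to 6 genes, by highest stimulated fold enrichment. Of the partner list, 1 gene is not reported here and was left out of its counts. The members and lists were chosen with earlier results of these data known. The code was tested on simulated data. Alternatives changed the distance, the q minimum, list length, peak width, competing genes, overlap and scaling.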

Additional observations from a re-analysis of the deposited data

How the results depend on the processing

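The counts within 100 kb (11 stimulated and 2 unstimulated peaks, 7 and 1 of them nearest to the gene, 2 and 2 shared) depend on thresholds. Within 50 kb or 25 kb, 1 unstimulated peak at 1 gene and 1 shared pair were left. Within 250 kb, a distance added after seeing the data, there were 21 stimulated and 4 unstimulated peaks, 11 and 2 of them nearest and 4 and 4 shared. A −log10 q of 5 or more left 7 stimulated peaks, 3 of them nearest. A −log10 q of 10 or more left 3 stimulated peaks (2 nearest, 1 shared) and 1 unstimulated peak at 1 gene, which was shared. The stimulated list shortened to 1133 peaks kept 2 at 2 genes, Apln and Igfbp3, both nearest, and 1 shared pair. Leaving out peaks under 150 bp wide left 6, 4 of them nearest. With noncoding genes and pseudogenes competing, 4 stimulated and 0 unstimulated peaks were nearest. When genes with predicted symbols, such as Gm7743, were left out of that competition, the counts stayed at 7 and 1. The ratio at the Kcnn4 site in the Plaur window was 0.877 by fold enrichment, in place of 1.56 by pileup. The stricter settings remove peaks by construction; the cause of the others was not tested.

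Other overlap rules changed no shared count, and unscaled pileups (ratios 1.22 at Apln, 1.21 at Plaur) or a median ratio set to 1 (1.06 at both) kept the ratios above 1 and inside their intervals. Leaving out each replicate was not run, because the libraries were merged before peaks were called. No paired analysis was possible because the conditions share no replicate letter and no value per library was analysed here. Pileups of 33 to 45 tags at the 2 shared sites within 100 kb limit each of these ratios to a wide interval.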

Other observations

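Between 100 kb and 250 kb from the tip cell genes, some peaks lay inside other genes. The shared site 125 kb from Plaur was inside Ethe1, which encodes a mitochondrial sulfur dioxygenase, with fold enrichments of 6.0 stimulated and 4.50 unstimulated and a pileup ratio of 1.29 (counting interval 0.784 to 2.12). Stimulated peaks 158 kb and 219 kb upstream of Esm1 were inside Cdc20b (4.66) and Ccno (4.63), and those 189 kb and 231 kb downstream of Cxcr4 were inside Dars (4.50) and Mcm6 (3.73). A stimulated peak 195 kb upstream of Cxcr4 (3.73) was again nearest to Cxcr4 among protein-coding genes. These values were looked at after the 100 kb counts were known, and no explanation was tested.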
